A study of Chlorocebus sabaeus with 4 samples.

Results

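The insulin-like growth factor (IGF) genes were followed in the corpus luteum, the progesterone-secreting gland left behind by an ovulated follicle. The set holds the ligands IGF1 and IGF2, the receptor IGF1R and the binding proteins IGFBP1 to IGFBP7. These genes were chosen by name and not by a rule on their values, but with earlier results of these data known. Of the 10 genes, 9 had at least 1 probe set annotated to that gene alone, with 26 such probe sets among 41091 in the series. IGF2 was the exception, since its 3 probe sets also carry the symbol of the readthrough gene INS-IGF2, and their values are given apart and enter no count. Of the 9 measured genes, 8 lay at or above the median of the mean signal over all 19775 genes, a log2 signal of 5.26 (the level filter), and IGFBP1 lay below it.

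IGF1 and IGF2 are secreted hormones of the insulin family that promote growth, survival and steroid production of ovarian cells through the receptor tyrosine kinase IGF1R. The binding proteins hold the ligands in the extracellular fluid and can block or prolong their action, and proteases such as PAPPA release the ligands again. In circulation IGFBP1 is known to follow nutrition closely, being restrained by insulin, whereas IGFBP3 carries most of the circulating IGF. IGFBP7 binds IGFs weakly and is known as a protein of blood vessel walls.

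Tissue RNA came from 2 adult female vervet monkeys (Chlorocebus sabaeus), both 16 years old. Monkey 1030 was in the ad libitum group and monkey 1031 in the calorie restriction group (the restricted monkey below), and each gave 2 corpus luteum samples, numbered 1 and 2, with the animal acting as its own control for a change in weight. Which number was collected first, the weights and the luteal stage are not stated in the labels, so a change below means sample 2 minus sample 1 and carries no time order. Each sample was 1 array of probes designed on human genes, so no change between an animal's samples has a replicate or a p-value, and genes are called higher or lower where the change was at least 2-fold.

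Precision is limited by having 4 arrays. The ad libitum monkey's sample 2 differed by 2-fold or more from each other sample in 912 to 1031 of 9888 genes past the level filter, against 122 to 333 genes among the other 3 samples. In that sample 9 of 10 measured markers of luteal steroid-making cells were lower than in sample 1, beside 6.58% of all genes past the filter. Their median change was -3.58. Their summed linear signal was 31272 in sample 1 and 4318 in sample 2 of this animal, and 12805 and 20622 in the restricted monkey. RMA gives no zeros, and the lowest value in that list was NR5A1 at a log2 signal of 4.02 in the ad libitum sample 2. In whole tissue, fewer cells of a type and less RNA per cell cannot be told apart.

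In the ad libitum monkey, 3 of the 7 binding proteins, IGFBP1, IGFBP2 and IGFBP7, were lower in sample 2, and none of the 9 measured genes was higher. Past the level filter these were 2 genes of 8, where 6.58% of all genes were lower and 2.67% higher. The 9 genes had a median change of -0.06, and all genes past the filter had a median of -0.01. IGF1 lay on the other side of zero, at 0.76, under the 2-fold limit.

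IGFBP7 was the binding protein with the largest change past the level filter. Its log2 signal was 13.72 in sample 1 and 12.37 in sample 2 of the ad libitum monkey, with 13.89 and 13.83 in the restricted monkey. The ad libitum sample 2 was the low one of the 4, and the other 3 lay close together. The change of -1.34 was 2.54-fold, and 3.44% of all genes past the filter had a decrease at least as large. The other probe sets of IGFBP7 gave -1.44 and -1.28, the latter from a probe set below the filter, so that all 3 agreed on a decrease of more than 2-fold.

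IGFBP2, a binding protein with a preference for IGF2, was also lowest in the ad libitum sample 2. Its log2 signal was 11.18 and 10.08 in the ad libitum monkey's samples 1 and 2 and 11.42 and 11.49 in the restricted monkey. The change of -1.10 was 2.14-fold in the first animal, and that of 0.07 in the second was 1.05-fold. IGFBP2 was read by 1 probe set, so no second reading was at hand.

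IGFBP1 was lower in sample 2 of both animals, at a weak signal. Its brighter probe set gave 3.86 and 2.07 in the ad libitum monkey's samples 1 and 2, and 5.61 and 4.59 in the restricted monkey. The changes were -1.79, or 3.47-fold, and -1.03, or 2.04-fold. The other probe set lay between 2.11 and 2.35 in all 4 samples and gave 0.10 and 0.12, so the sizes rest on 1 probe set whose lowest value is as dim as the flat one. With the mean of both probe sets the changes were -0.85 and -0.46, under 2-fold in each animal.

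In the restricted monkey, 2 of the 9 genes were lower in sample 2, IGFBP1 and IGFBP3, and none was higher. Past the level filter this was 1 gene of 8, IGFBP3, where 0.738% of all genes were lower and 0.496% higher. The median change of the 9 genes was -0.10, beside -0.03 for all genes past the filter.

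IGFBP3 had a log2 signal of 10.16 in sample 1 and 9.11 in sample 2 of the restricted monkey, and 10.18 and 10.41 in the ad libitum monkey. Here the calorie restriction sample 2 was the low one, and the other 3 lay close together. The change of -1.05 was 2.07-fold, and 0.647% of all genes past the filter decreased by as much or more in that animal. A second, dim probe set gave -0.39, and the mean of both gave -0.72, under 2-fold.

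The remaining binding proteins were under 2-fold in both animals. IGFBP4, which inhibits IGF action until PAPPA cleaves it, had log2 signals of 10.46, 10.62, 10.70 and 10.60 in the ad libitum samples 1 and 2 and the calorie restriction samples 1 and 2. Its changes were 0.16 and -0.10, and the 4 samples spanned 0.24, the narrowest span among the 7 binding proteins. IGFBP6, which prefers IGF2, had signals of 7.99 and 7.64 in the ad libitum monkey and 7.43 and 8.08 in the restricted monkey. Its changes of -0.35 and 0.65 had opposite signs, and the samples of the animals overlapped.

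IGFBP5, a binding protein held in the extracellular matrix, was read by 6 probe sets that disagreed. The brightest gave 11.27 and 11.21 in the ad libitum monkey and 11.02 and 10.63 in the restricted monkey, which are changes of -0.06 and -0.39. Over the 5 probe sets past the filter the change ran from -0.07 to 0.75 in the ad libitum monkey and from -0.92 to 0.54 in the restricted monkey. No probe set of IGFBP5 reached 2-fold in either animal, and no direction is given for the gene.

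**Figure D1:**
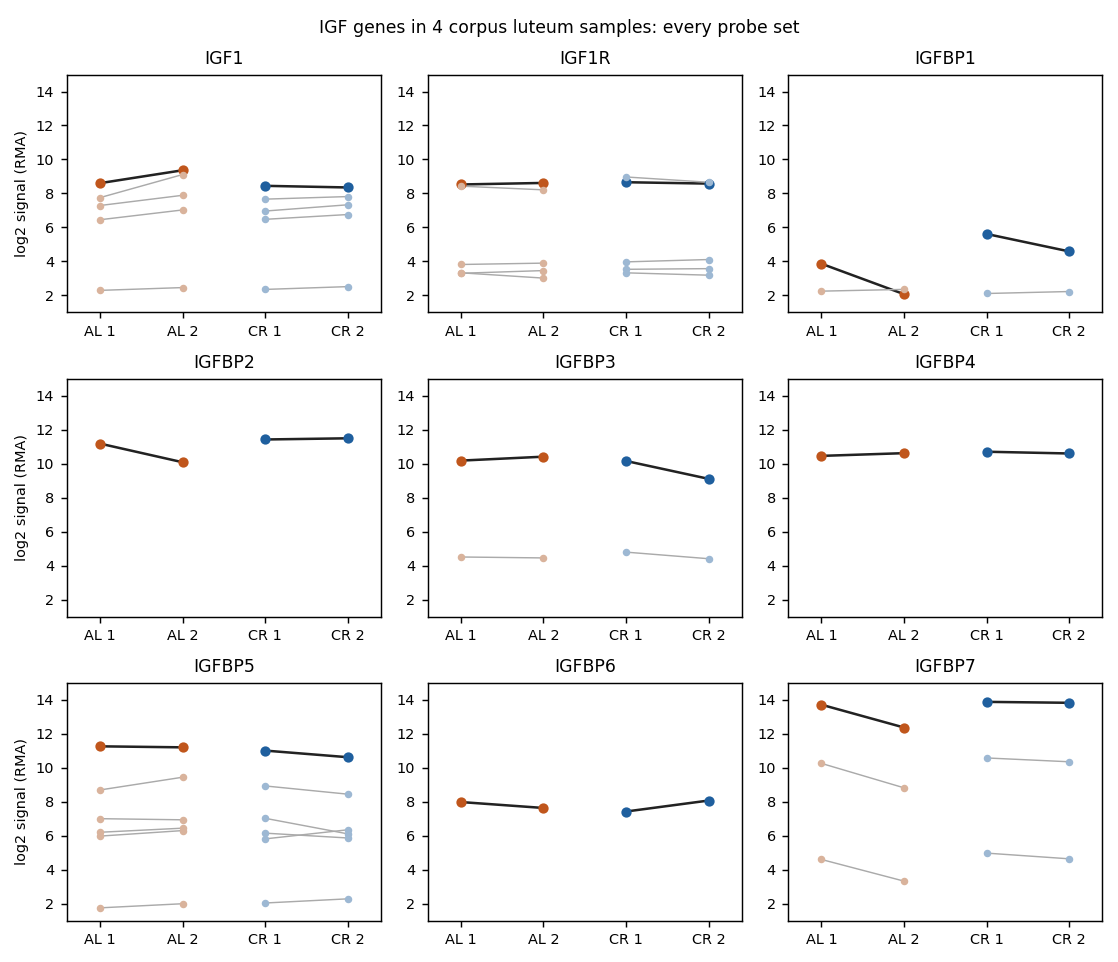
Log2 RMA signal (vertical axis) of the 9 measured IGF genes in the ad libitum (AL, orange) and calorie restriction (CR, blue) samples 1 and 2, with a line joining the samples of an animal for each probe set, dark for the brightest. IGFBP7 and IGFBP2 are lowest in AL 2 and IGFBP3 in CR 2; heights are not comparable between probe sets.

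Among the ligands, IGF1 was read by 5 probe sets. The brightest had log2 signals of 8.61 and 9.37 in the ad libitum monkey's samples 1 and 2 and 8.45 and 8.35 in the restricted monkey, so the ad libitum sample 2 was the high one. The change was 0.76, or 1.69-fold, in the ad libitum monkey, where 5.25% of all genes past the filter increased by as much or more, and -0.10 in the restricted monkey. All 4 probe sets past the filter were higher in the ad libitum sample 2, by 0.58 to 1.36, and the probe set with the largest change went from 7.75 to 9.11, past 2-fold. In the restricted monkey the same 4 ran from -0.10 to 0.37.

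The 3 probe sets that carry the symbols of both IGF2 and INS-IGF2 had opposite signs in the animals. The brightest had log2 signals of 8.35 and 8.92 in the ad libitum monkey and 8.30 and 7.43 in the restricted monkey. The changes were 0.48 to 0.76 in the first animal and -1.10 to -0.84 in the second, over the 3 probe sets. These readings cannot be assigned to IGF2 alone.

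IGF1R, the receptor, was under 2-fold in both animals. Its brightest probe set had log2 signals of 8.53 and 8.62 in the ad libitum monkey and 8.66 and 8.58 in the restricted monkey, a span of 0.13 over the 4 samples. The changes were 0.09 and -0.08. A second probe set of nearly the same brightness had signals of 8.43 and 8.21 in the ad libitum monkey and 8.97 and 8.66 in the restricted one, a span of 0.76 with the animals apart. It changed by -0.22 and -0.31, and the 3 dim ones stayed between -0.31 and 0.16.

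**Figure D2:**
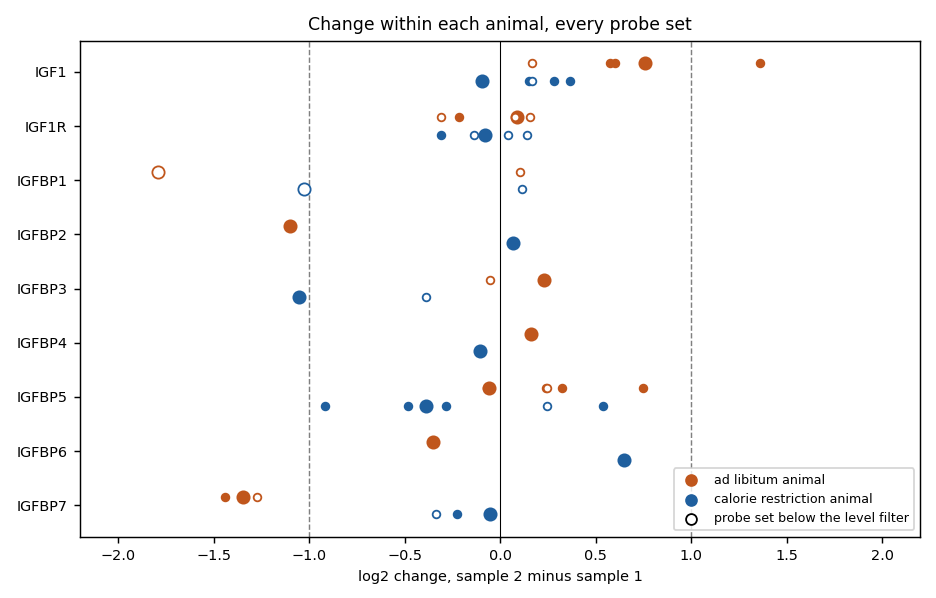
Log2 change, sample 2 minus sample 1 (horizontal axis), of each probe set of the 9 IGF genes in the ad libitum (orange) and calorie restriction (blue) animals; large points are the brightest probe set of a gene, open points lie below the level filter and dashed lines mark 2-fold. The 3 probe sets of IGFBP7 lie together left of -1 in the ad libitum monkey, whereas those of IGFBP5 lie on both sides of zero in the restricted monkey.

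Because signals of different probe sets cannot be set against each other as levels, the binding proteins were compared by their changes. Among the 21 pairs of binding proteins, 10 changed unequally by 2-fold or more in the ad libitum monkey. In the restricted monkey there were 5, with 2 pairs in both. Some of these pairs include IGFBP1, which has no probe set past the level filter, and no share over other gene pairs was computed. IGFBP7 and IGFBP2 differed from each other by 0.25 and 0.12 in their changes in the ad libitum and restricted monkeys, so these 2 stayed together in both. IGFBP2 and IGFBP3 parted in opposite ways. The change of IGFBP2 was 1.33 below that of IGFBP3 in the ad libitum monkey and 1.12 above it in the restricted monkey. By the brightest probe sets IGFBP1 and IGFBP6 parted the same way in both, with IGFBP1 1.44 below in the first and 1.67 below in the second. With the mean of both IGFBP1 probe sets its changes were -0.85 and -0.46, beside -0.35 and 0.65 for IGFBP6. The gap in the ad libitum monkey was then under 2-fold. These pairs have 1 array per sample behind them, and no test was made.

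By the brightest probe sets, the change of IGF1 in the ad libitum monkey lay above that of each of the 7 binding proteins. It exceeded that of IGFBP7 by 2.10, which is a 4.30-fold shift of ligand against binding protein transcript, and over the 8 combinations of their probe sets past the filter the excess ran from 1.92 to 2.80. Against IGFBP2 the excess was 1.86, or 3.62-fold, with a range of 1.67 to 2.46 over 4 combinations. Against IGFBP4 it was 0.60, against IGFBP3 0.53 and against IGFBP6 1.11. Against IGFBP5 it was 0.82, but 2 of 20 combinations of probe sets put IGF1 below, with a range of -0.17 to 1.43. In the restricted monkey the IGF1 change differed from those of IGFBP7, IGFBP2 and IGFBP4 by -0.04, -0.17 and 0.01, while it exceeded that of IGFBP3 by 0.96 and lay 0.74 below that of IGFBP6 (a difference of -0.74). The brightest IGF1 probe set has the lowest change there, and over all combinations the differences ran from -0.04 to 0.59 for IGFBP7, -0.17 to 0.30 for IGFBP2 and 0.01 to 0.47 for IGFBP4. These differences show unequal change of 2 transcripts between the 2 arrays of an animal, and not which transcript stayed constant.

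**Figure D3:**
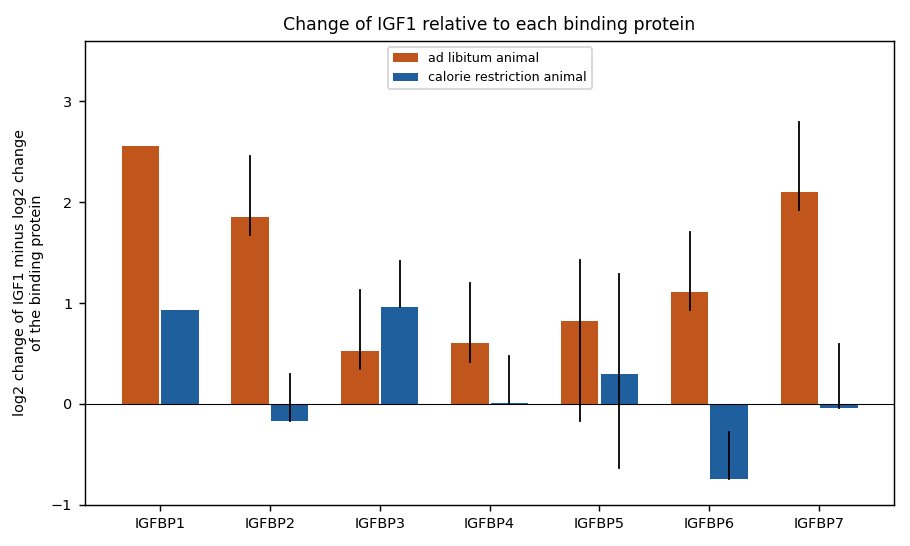
Log2 change of IGF1 minus log2 change of each binding protein (vertical axis) in the ad libitum (orange) and calorie restriction (blue) animals; bars use the brightest probe set of each gene and black lines span all combinations of probe sets past the level filter (none for IGFBP1). Bars for IGFBP2 and IGFBP7 reach 1.86 and 2.10 in the ad libitum monkey; in the restricted monkey they are -0.17 and -0.04, at the low end of their black lines.

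Pairs of IGFBP genes lie side by side in the genome. In the RefSeq annotation of vervet assembly mChlSab1.0.hap1, IGFBP2 and IGFBP5 are neighbouring protein-coding genes on chromosome 10, and IGFBP3 and IGFBP1 are neighbours on chromosome 21. By the brightest probe sets, IGFBP3 and IGFBP1 changed by -1.05 and -1.03 in the restricted monkey, but by 0.23 and -1.79 in the ad libitum monkey. The IGFBP1 probe set lies below the level filter. With the mean of all probe sets IGFBP3 and IGFBP1 gave -0.72 and -0.46 in the restricted monkey, and 0.09 and -0.85 in the other. IGFBP2 and IGFBP5 differed in the ad libitum monkey, at -1.10 and -0.06, and gave 0.07 and -0.39 in the restricted monkey. IGF2 has INS, the insulin gene, as a neighbour on chromosome 1, and no coordinates are given because no vervet build belongs to the arrays.

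Between the animals, no IGF gene passed the test. For calorie restriction minus ad libitum, limma with Benjamini-Hochberg adjustment over 9897 genes called 0 genes, or 0%, at an adjusted p of 0.05, and the IGF genes had adjusted p-values from 0.859 to 0.986. At an unadjusted p of 0.05, 523 genes passed, among them 1 IGF gene, IGFBP1. Samples 1 and 2 of an animal stand as replicates in this fit, although each animal was its own control for a change in weight. The change within an animal described above is thus the error of the fit. These p-values measure the spread between the samples of 2 animals and not the spread between animals. An exact permutation test of 2 samples against 2 cannot go below 0.333.

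The samples of the animals did not overlap in 6 of the 9 genes, 5 of them past the level filter, where 35.3% of all genes past it did not overlap. IGFBP1, IGFBP2 and IGFBP7 were on the higher side in the restricted monkey and IGF1, IGFBP3 and IGFBP5 on the lower side. This holds for the brightest probe set of each gene. The other probe sets of IGFBP7 were also on the higher side. Those of IGF1 overlapped, as did most of the other IGFBP5 probe sets past the filter. The dim probe set of IGFBP3 overlapped too, with a difference of 0.12. IGFBP1 alone among the 6 also had means 2-fold apart, a feature of 3.08% of genes past the filter, although IGFBP1 itself lies below it. Its difference was 2.13 (95% interval 0.38 to 3.89), with means of 5.10 and 2.97 in the calorie restriction and ad libitum monkeys. The ad libitum value of 2.07 is as dim as the flat probe set, detection was not analysed, that other probe set gave -0.13, and the mean of both gave 1.00.

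For IGFBP2 the difference was 0.83 (-0.21 to 1.86) and for IGFBP7 0.81 (-0.38 to 2.01). Both rested on the ad libitum sample 2. Without it they were 0.28 and 0.14, and IGFBP1 came to 1.24. Without the ad libitum sample 1 the same 3 genes passed the limma test, but that fit sets the lone ad libitum sample 2 against 2 restricted samples, takes its spread from the latter and assumes that the lone sample varies like them. It restates that the ad libitum sample 2 was the low one, with differences of 1.38 for IGFBP2 (adjusted p = 0.031), 1.48 for IGFBP7 (adjusted p = 0.017) and 3.03 for IGFBP1 (adjusted p = 0.041). In that fit 478 of all 9897 genes passed.

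IGFBP3 was the other way, with a difference of -0.66 (-1.68 to 0.36), and it rested on the restricted sample 2. It was -0.14 without that sample, -1.19 without the restricted sample 1 and -0.55 without the ad libitum sample 2. IGF1 gave -0.59 (-1.39 to 0.22), and -0.21 without the ad libitum sample 2. IGFBP5 gave -0.42 (-0.99 to 0.16), and -0.22 without the restricted sample 2. The others were IGFBP4 at 0.11 (-0.39 to 0.62), IGFBP6 at -0.06 (-0.83 to 0.71) and IGF1R at 0.05 (-0.45 to 0.54), for which a second bright probe set gave 0.49. For the brightest probe sets of IGFBP4, IGFBP5, IGFBP6 and IGF1R the interval leaves out a 2-fold difference either way, for IGFBP5 only just (-0.99). Like the p-values, the interval measures the spread between the samples of these 2 animals. It cannot leave out a 2-fold difference between diets or between other animals.

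**Figure D4:**
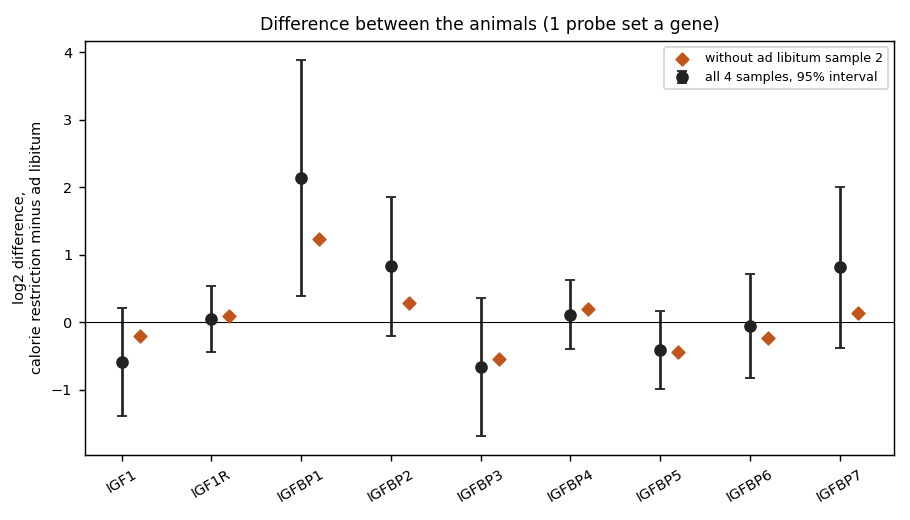
Log2 difference, calorie restriction minus ad libitum monkey (vertical axis), of the 9 IGF genes with the 95% interval from limma over 4 samples (black) and the value without the ad libitum sample 2 (orange diamonds). IGFBP2 and IGFBP7 go from 0.83 and 0.81 to 0.28 and 0.14 without that sample, whereas IGFBP5 goes from -0.42 to -0.45.

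The series title names weight gain and loss, so common and opposed changes of the animals were fitted with the animal as a block. By the sign of the change alone, whatever its size and by the brightest probe set, 6 of 9 IGF genes had opposite signs in the animals, 3 had a negative change in both (IGFBP1, IGFBP5 and IGFBP7) and none a positive one in both. The 6 include changes near zero, such as 0.09 and -0.08 for IGF1R. The share of all genes with opposite signs was not counted, and across genes past the filter the changes of the animals correlated at -0.27. With the mean of all probe sets IGF1 was positive in both, at 0.69 and 0.17, and IGFBP5 at 0.24 was positive in the ad libitum monkey. The limma fits called 0 genes for either pattern. At an unadjusted p of 0.05, 181 of 9897 genes passed for the common pattern and 738 for the opposed one. IGFBP1 was the IGF gene among the former, with a mean change of -1.41 (SE 0.23). That value rests on 1 probe set below the level filter and a fit with 1 residual degree of freedom. The other IGFBP1 probe set gave 0.10 and 0.12 in the ad libitum and restricted monkeys. None of the IGF genes was among those of the opposed pattern, and IGFBP3 and IGFBP6 both had an adjusted p of 0.67 there.

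Other genes of the pathway were taken from a list of 38 measured genes, 30 of them past the level filter. The list was drawn up with earlier results of these data known. Its counts, and those of its parts below, are therefore only descriptive beside the shares of all genes. In the ad libitum monkey 7 of the 38 were lower in sample 2 and none higher, with a median of -0.04. Past the filter 6 of 30 were lower, beside 6.58% of all genes lower and 2.67% higher. In the restricted monkey none reached 2-fold, with a median of -0.08. No gene of the list passed the limma test between the animals, where the lowest adjusted p was 0.827.

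Of 8 genes listed under binding protein complexes, proteases and protease inhibitors, 4 were lower in the ad libitum sample 2. All 4 were among the 7 past the filter, where 6.58% of all genes were lower. The serine protease PRSS23 is among the 4 by its place on the list, and whether it cleaves binding proteins was not examined. PAPPA, the protease that cleaves IGFBP4, had log2 signals of 7.92 and 6.13 in the ad libitum monkey and 7.05 and 7.97 in the restricted monkey. Its changes of -1.79 and 0.92 had opposite signs, and the animals overlapped. STC2, a stanniocalcin that inhibits PAPPA, went from 7.59 to 4.39 in the ad libitum monkey and from 7.27 to 7.23 in the other. With a change of -3.20, STC2 had the larger change of the 2, and its ad libitum sample 2 was far below the other 3 samples.

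The related inhibitor STC1 had a different pattern. Its log2 signals were 10.24 and 10.29 in the ad libitum monkey and 10.49 and 9.50 in the restricted monkey, a change of -0.99 that was just under 2-fold. ADAM12, a metalloprotease that cleaves IGFBP3 and IGFBP5, changed by -1.21 and -0.24, and the serine protease PRSS23 by -1.09 and -0.03. HTRA1, a serine protease, stayed under 2-fold at 0.43 and -0.09.

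Proteins that share an IGFBP-like domain include the CCN matrix proteins. Of 9 such genes 3 were lower in the ad libitum sample 2, and 2 of the 5 past the filter, beside the same 6.58% of all genes. CCN5 went from 9.74 to 6.33 in that animal and from 9.34 to 9.38 in the other, a change of -3.41 in the first and 0.05 in the second. CCN2, or connective tissue growth factor, changed by -1.95 and 0.25. ESM1, an endothelial proteoglycan below the level filter, changed by -1.20 and 0.06. CCN1 gave -0.17 and -0.83, under 2-fold in both.

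The other receptors and the adaptors were under 2-fold in both animals. IGF2R, which clears IGF2 into lysosomes, changed by 0.05 and -0.63, and the insulin receptor INSR by -0.02 and -0.24. The growth hormone receptor GHR, below the level filter, gave -0.88 and 0.21. Among the receptor substrates IRS1 gave 0.50 and -0.34, and IRS2 gave 0.68 and -0.63. IRS2 had log2 signals of 9.11 and 9.80 in the ad libitum monkey and 9.08 and 8.45 in the restricted monkey.

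**Figure D5:**
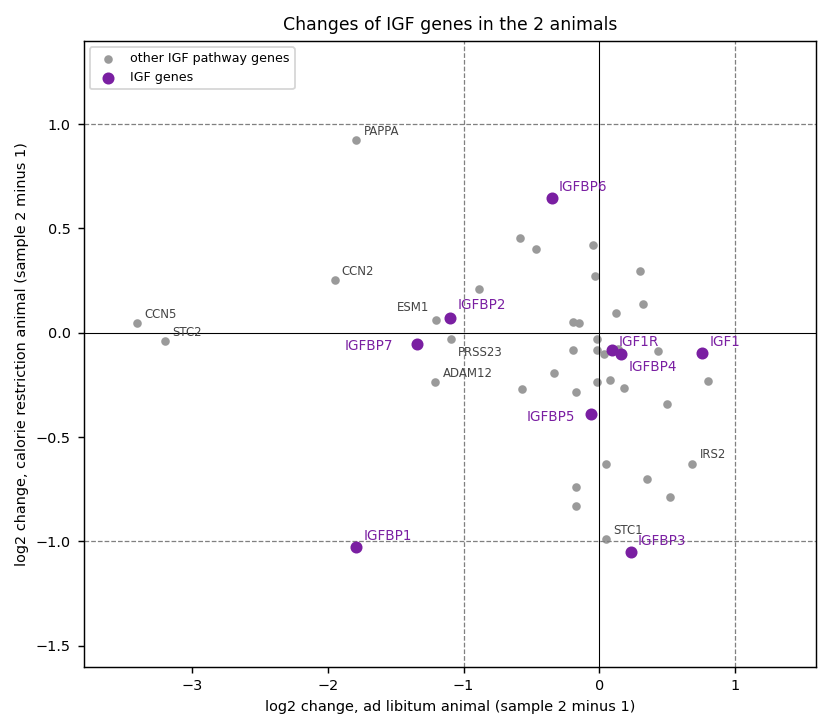
Log2 change, sample 2 minus sample 1, in the ad libitum monkey (horizontal axis) and in the restricted monkey (vertical axis) for the 9 IGF genes (purple) and 38 other pathway genes (grey), with dashed lines at 2-fold. STC2 and CCN5 lie at -3.20 and -3.41 on the horizontal axis, and IGFBP1 is the one gene past 2-fold in both animals.

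Cell type markers moved beside these genes in the ad libitum monkey. The counts below stand beside 6.58% of all genes past the filter lower and 2.67% higher in the ad libitum sample 2. In the restricted sample 2 these shares were 0.738% and 0.496%. The marker lists also hold genes below the filter. Of 14 endothelial markers, 6 were lower in the ad libitum sample 2 and none higher, with a median of -0.85. Their summed signal was 3049 and 1445 in the ad libitum samples 1 and 2, and 4716 and 3569 in the restricted monkey. The lowest endothelial value was PLVAP at 4.62. Of 12 smooth muscle and pericyte markers 3 were higher and 2 lower there (median 0.31), with summed signals of 10652 and 14727, against 7658 and 10224 in the other animal. Of 11 fibroblast and stroma markers 2 were higher and 2 lower (median -0.27), with summed signals of 31287 and 23585, against 27406 and 31139. In the restricted monkey the endothelial, smooth muscle and fibroblast medians were -0.23, 0.19 and 0.10. Of the 10 luteal steroid-making markers 4 were higher in its sample 2 and 0 lower, with a median of 0.72, where 0.496% of all genes were higher. CYP19A1 was listed under both luteal and granulosa markers, and TCF21 under both fibroblast and theca markers. Of 4 theca and interstitial markers 3 were higher in the ad libitum sample 2 and 2 lower in the restricted sample 2, with medians of 1.12 and -1.11 and summed signals of 3890 and 7750 in the first animal and 2598 and 1735 in the second. INSL3, the theca cell hormone, changed by 2.66 and -2.00. Of 10 oocyte markers 3 were higher in the ad libitum sample 2, ZAR1 (3.70), ZP4 (3.64) and FIGLA (1.85), and the list's summed signal was 889 there against 227 to 251 in the other 3 samples. Of 8 granulosa markers 4 were higher and 3 lower there (median 0.45), with summed signals of 5802 and 2619, against 6622 and 6969. Of 11 macrophage markers 2 were higher and 1 lower (median 0.27), with summed signals of 2213 and 3375, against 3059 and 2947. The lymphocyte list had no marker 2-fold apart in either animal, but 7 of its 9 markers lay below the level filter. So did 7 of the 10 oocyte markers, FIGLA among them. Of 5 red blood cell markers 1, HBB, was lower in the ad libitum sample 2. The part of these cell types in the IGF changes was not tested.

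The genes whose 4 values ran most like those of an IGF gene were found by the Euclidean distance between mean-centred log2 signals over the 4 samples, a description with few points. For IGFBP7 the nearest was SPARC, a matrix glycoprotein, at a distance of 0.06, with changes of -1.32 and -0.05. DLC1 (0.09) and DCLK1 (0.10) followed. For IGFBP2 they were HTATIP2 (0.07), CRIP2 (0.08) and ADAM17 (0.08). IGFBP3 had more distant neighbours in PEG3 (0.17), CSRNP3 (0.19) and C1S (0.20), with PEG3 changing by 0.08 and -1.06. For IGF1 they were LRRK1, TAF1D and FECH, each at 0.06.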

How the data were processed

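Each of 4 arrays had log2 signals of probe sets, which the authors made with Affymetrix Power Tools and RMA, per the submitters' processing notes; their versions and parameters are not stated there. RMA equalises arrays, so a shift common to all genes would be removed, and probes that mismatch the vervet sequence can lower a signal. Scanner files were not used here, so detection above background was not analysed. Of 54675 probe sets, 41091 had 1 gene symbol and were used, except for the IGF2 probe sets named apart. The brightest probe set, by its mean over the samples, stood for a gene. Changes used a 2-fold rule without a test. The difference between animals was fitted without a block, and common and opposed changes with the animal as a block, by limma 3.58.1 (lmFit, eBayes with a trend, Benjamini-Hochberg over 9897 genes, namely the 9888 past the level filter and dimmer listed genes) in R 4.3.3, leaving 2 and 1 residual degrees of freedom. The limma code was run on simulated data with independent noise and a larger difference than any IGF gene had over the 4 samples. That run checks the code and not how many real differences it would find in these data. Named genes were the members, pathway genes 2-fold apart in either animal, 7 set pathway genes, and the 3 nearest genes by pattern for members that spanned 2-fold past the filter; HTRA1 and CCN1 were added after their values were seen. The members and lists were chosen with earlier results of these data known. Alternatives were other probe set rules, normalisations, thresholds, filters and fits, and leaving out each sample.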

Additional observations from a re-analysis of the deposited data

Results flagged for a closer look

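PAPPA had changes of opposite sign and at least 1.5-fold in each animal, -1.79 in monkey 1030 (ad libitum) and 0.92 in monkey 1031 (calorie restriction). The limma fit of an opposed change, which takes the common change as its error, gave PAPPA an adjusted p of 0.63. IRS2 did the reverse, with 0.68 and -0.63, and an adjusted p of 0.66 in that fit. Both genes were picked for opposed changes in these same arrays. The selection makes the opposed change large beside the common one, so that fit cannot test the pattern for them. One probe set shared by IGF2 and INS-IGF2 gave 0.76 and -1.10, a difference that was not tested.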

How the results depend on the processing

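With a 3-fold limit 1 IGF gene was lower in monkey 1030 (ad libitum) and 0 in monkey 1031 (calorie restriction); with a 1.5-fold limit 1 gene was higher in each, IGF1 and IGFBP6. The 3 lower genes of the ad libitum monkey became 2 with quantile normalisation repeated, where IGFBP2 came to -0.93, and 2 with all probe sets averaged, where IGFBP1 did not reach 2-fold. In the restricted monkey the count of 2 lower genes became 0 when all probe sets of a gene were averaged and 1 among members past the level filter. With that filter at the 75th percentile, 112 genes in place of 264 were higher in the ad libitum monkey, and 33 in place of 73 lower and 26 in place of 49 higher in the other. Between the animals, leaving out 1 sample called 0 to 3 IGF genes and 0 to 478 of all genes, above 0 without the ad libitum sample 1. The replicate block on sample number called 0, as did the crossed pairing, added after seeing the data because the changes of the animals correlated at -0.27 across genes. The other fits of this difference and those of common and opposed change called 0 IGF genes. Of 54 changes of single members recomputed with the mean of all probe sets, cyclic loess or a repeated quantile normalisation (the last added after seeing the data for single genes), 6 moved by more than the spread between samples of an animal, and no change of 2-fold or more reversed. All 6 were in monkey 1030: IGF1R, from 0.09 to -0.04 by the mean, 0.16 by cyclic loess and 0.20 by quantile, IGFBP5, from -0.06 to 0.24 by the mean and 0.14 by quantile, and IGFBP4 at 0.32 by quantile. That spread comes from the same 2 samples of each animal, so a gene with large changes could hardly count as moved. By the mean, IGFBP1 went from -1.79 to -0.85 in monkey 1030 and from -1.03 to -0.46 in monkey 1031, and neither counted. No sample can be left out of a change within an animal, which needs both.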
